A study of Mus musculus with 3 samples.

Results

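The genes described are the 10 that encode the mitochondrial acyl-CoA dehydrogenases, the trifunctional protein, the hydroxyacyl-CoA dehydrogenase and the electron transfer flavoprotein system. They were chosen by symbol (Acadvl, Acadl, Acadm, Acads, Hadha, Hadhb, Hadh, Etfa, Etfb and Etfdh), and all 10 were found, each on a single row, among 24481 gene rows. The samples were skeletal muscle, taken at postnatal day 42 from outbred mice of the ICR stock, in a study of fatigue and leaf extracts of Sasa quelpaertensis, a dwarf bamboo. The 3 groups were exercise with a treatment labelled SQH, an exercise control and a control, with 1 library each. The labels do not give the muscle, the exercise, the dose of SQH, whether the control received a vehicle, the sex of the mice or how many animals went into a library. Messenger RNA was read from its 3' end, and the deposited values are log2 levels.

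Mitochondrial beta-oxidation shortens fatty acids by repeated rounds of the same reactions. An acyl-CoA dehydrogenase matched to the chain length opens each round. A hydration and a hydroxyacyl dehydrogenation follow, and a thiolase step releases acetyl-CoA. The trifunctional protein holds all of these later activities, and the hydroxyacyl-CoA dehydrogenase carries only the hydroxyacyl dehydrogenation. The electrons taken by the acyl-CoA dehydrogenases pass to the electron transfer flavoprotein, a dimer of the Etfa and Etfb products, and from there through the Etfdh product to ubiquinone. Muscle rich in slow oxidative fibres carries more of this machinery than fast glycolytic muscle.

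The promoter windows of 4 of the genes are given as reference sequence, because they belong to the gene with the widest spread over the libraries (Etfa), the pair that shares a promoter region (Hadha and Hadhb, shown from Hadhb), and the 2 genes of the 10 that hold a nuclear receptor half-site (Acadm and Acadvl). All 10 genes matched the RefSeq promoter table of build GRCm38.p6, whose windows run from 250 bases before to 50 bases after the start. Sequences are written 5′ to 3′ on the strand of the gene, and capitals mark matches, on either strand, to AGGTCA (a half-site bound by nuclear receptors such as the PPARs), GGGCGG (a GC box) or CCAAT.
Etfa (chr9:55512194-55512493, minus strand): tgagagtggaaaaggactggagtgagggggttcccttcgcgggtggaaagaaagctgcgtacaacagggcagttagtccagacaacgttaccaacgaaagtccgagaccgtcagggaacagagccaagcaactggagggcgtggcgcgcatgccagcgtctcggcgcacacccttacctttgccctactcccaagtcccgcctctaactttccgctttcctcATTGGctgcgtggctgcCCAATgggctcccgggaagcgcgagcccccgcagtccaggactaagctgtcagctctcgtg
Hadhb (chr5:30155003-30155302, plus strand): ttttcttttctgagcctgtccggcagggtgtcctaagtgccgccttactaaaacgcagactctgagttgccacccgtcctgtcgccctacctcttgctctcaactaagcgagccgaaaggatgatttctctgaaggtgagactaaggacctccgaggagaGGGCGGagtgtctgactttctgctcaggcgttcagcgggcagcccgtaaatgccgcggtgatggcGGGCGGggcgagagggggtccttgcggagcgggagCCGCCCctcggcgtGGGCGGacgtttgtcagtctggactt
Acadm (chr3:153944594-153944893, minus strand): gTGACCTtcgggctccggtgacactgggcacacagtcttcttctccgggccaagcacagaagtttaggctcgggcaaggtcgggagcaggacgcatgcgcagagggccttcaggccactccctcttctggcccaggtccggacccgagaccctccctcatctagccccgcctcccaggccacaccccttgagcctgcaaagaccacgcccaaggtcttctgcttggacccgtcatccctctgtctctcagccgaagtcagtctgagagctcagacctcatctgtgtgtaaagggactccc
Acadvl (chr11:70015379-70015678, minus strand): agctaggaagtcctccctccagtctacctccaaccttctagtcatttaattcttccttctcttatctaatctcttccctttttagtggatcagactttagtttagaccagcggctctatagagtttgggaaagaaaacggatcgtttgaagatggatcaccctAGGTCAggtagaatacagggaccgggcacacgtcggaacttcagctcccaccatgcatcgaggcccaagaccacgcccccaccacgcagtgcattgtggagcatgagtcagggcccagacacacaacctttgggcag
AGGTCA was found in 2 of the 10 windows, against 16.3% of all 32851 windows in the table. GGGCGG was found in 7 of the 10 (all but Acadm, Acadvl and Etfa), against 35.7% of all windows, and CCAAT in 4 (Etfa, Etfb, Etfdh and Hadh), against 37.4%. No base lay in matches to 2 of the motifs. The Hadha window, on the opposite strand, shares 228 bases with that of Hadhb, and 85 bases separate the annotated starts of the 2 genes in GENCODE M21. The only GGGCGG match of Hadha lies in the shared bases and is the same site as 1 of the 4 in Hadhb, so the 7 windows are not all separate. A match says only that these letters occur in the C57BL/6J reference, and the animals were ICR.

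The libraries held about 12.4 M reads with SQH, 8.12 M in the exercise control and 10.8 M in the control, judged by the gaps between low values, so the exercise control was the least deeply read. Skeletal muscle markers were present in all libraries, with 8 of 8 past the expression minimum and none called in any comparison. The exercise control library stood apart from the others in its cell and fibre type markers. All 12 slow-fibre markers were called lower there than in control muscle, with a summed linear level of 447213 in the exercise plus SQH library, 49551 in the exercise control and 564512 in the control. Of 14 fast-fibre markers, 1 was called higher in that comparison. All 5 tested nerve and Schwann cell markers were called higher in the exercise control, where the list of 9 summed to 4462, against 1372 with SQH and 1272 in the control. Of 12 adipocyte markers 6 were tested and 3 called lower in the exercise control. The adipocyte list summed to 5895 with SQH, 4267 in the exercise control and 5202 in the control. Fabp4, which is also on the fatty acid uptake list below, made up most of each sum (log2 12.19, 11.72 and 11.93 in that order). Wider gaps were seen for Adipoq (6.09, 3.83 and 6.08) and Plin1 (5.57, 3.42 and 4.23), both below the minimum. Lipe was highest in the exercise control (8.90, 8.95 and 8.64). Lep was at 0 in all 3 libraries, Cidec and Retn were at 0 in the exercise control, and Ucp1 was at 0 in the exercise control and the control. Both tested cardiac markers, Myh6 and Actc1, were called lower in the exercise control, and Myl7 and Mybpc3 were at 0 throughout. Of 6 tested endothelial markers 5 lay higher in the exercise control than in control muscle (median 0.43 over the 6), none of them called, and Robo4 was called lower. The 7 endothelial markers summed to 2038 with SQH, 2555 in the exercise control and 1932 in the control. The 1 tested hepatocyte marker, Serpina1a, was called higher in the exercise control, none of 4 tested was called for red cells, and no macrophage marker of 5 passed the minimum. In bulk muscle, fewer cells of a type and less RNA per cell cannot be told apart. The part of fibre type, nerve, fat or depth in the results that follow was not tested.

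All 10 genes stood lowest in the exercise control library. The exercise plus SQH library was the highest of the 3 for Acadvl, Acadm, Hadh and Etfa, and lay between the other two for the remaining 6 genes. A gene row was tested where its linear values averaged 66.5 or more, which 7857 rows did, and the exercise control was the lowest of the 3 libraries for 40.1% of them. SQH was the highest and the exercise control the lowest for 19.2% of tested rows, and SQH lay between the others, with the control highest, for 20.8%. The order was not the same under every scaling. Acadvl was no longer lowest in the exercise control after median centring, quantile normalization or scaling to equal sums, and Etfb no longer after median centring. Together the 10 genes made up 25.7 of every 10000 linear units in the exercise plus SQH library (95% Wilson interval 25.4 to 26.0 on the estimated reads), 19.4 in the exercise control (19.1 to 19.7) and 27.6 in the control (27.2 to 27.9). Intervals and standard errors cover the counting of reads only, because with 1 library a group there is no replicate error and no p-value for any difference. The word called is used for a log2 difference of 1 or more in size, which is 2-fold. A difference is said to be beyond counting error where its size exceeds 1.96 times its counting standard error, and within it otherwise.

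**Figure D1:**
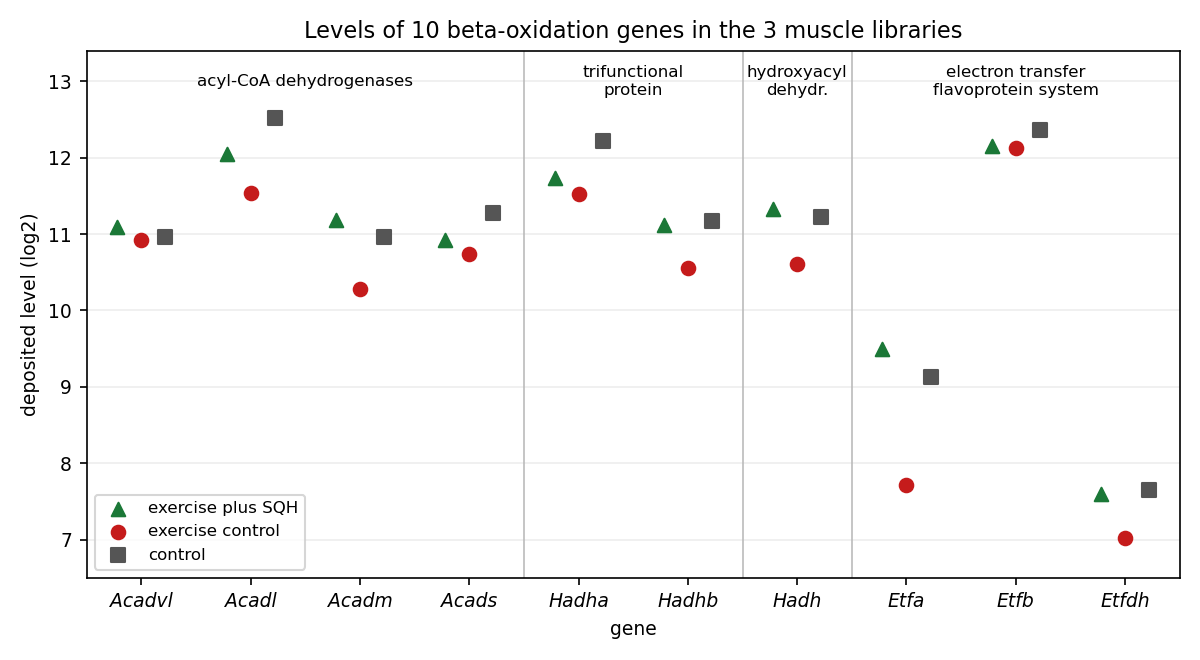
Deposited log2 level (vertical axis) of each of the 10 genes (horizontal axis, grouped by role) in the exercise plus SQH, exercise control and control libraries, 1 point per library and therefore no error bars. The exercise control point is the lowest of the 3 for every gene, by the widest margin for Etfa, where it sits at 7.72.

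The acyl-CoA dehydrogenases take the first step, and their names give the chain length each prefers. Acadvl, the very long chain enzyme of the inner membrane (GRCm38 chromosome 11, 70010183 to 70015411), stood at 11.09 in the exercise plus SQH library, 10.92 in the exercise control and 10.97 in the control. Its difference between exercise control and control was within counting error (-0.05 ± 0.05, counting standard error), and reached 0.03 under the scalings tried. Acadl, the long chain enzyme (chromosome 1, 66830839 to 66863277), stood at 12.05 with SQH, 11.54 in the exercise control and 12.52 in the control. Its difference of -0.98 ± 0.03 between exercise control and control was just under the size needed for a call, and left it at 50.7% of its control level. Of the dehydrogenase genes it had the highest level in each library and the largest gap to the control.

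Acadm encodes the medium chain enzyme (chromosome 3, 153922357 to 153944632) and stood at 11.18 with SQH, 10.28 in the exercise control and 10.97 in the control. It lay 0.90 ± 0.05 higher with SQH than in the exercise control, the widest such gap of the 4 dehydrogenase genes, and 0.21 ± 0.04 above the control. Acads, the short chain enzyme (chromosome 5, 115110299 to 115119346), stood at 10.93 with SQH, 10.74 in the exercise control and 11.28 in the control. It differed from Acadm in that the SQH level was close to that of the exercise control (0.19 ± 0.05) and stayed 0.35 below the control (-0.35 ± 0.04). The 4 genes were thus unequal in both comparisons that involve the exercise control, and none was called in any of the 3 comparisons.

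Hadha and Hadhb encode the alpha and beta subunits of the trifunctional protein, which holds the hydratase and long chain hydroxyacyl dehydrogenase activities on alpha and the thiolase on beta. The genes lie head to head on chromosome 5, Hadha from 30118304 to 30155162 on the minus strand and Hadhb from 30155248 to 30184593 on the plus strand, with the shared promoter region printed above. Hadha stood at 11.74 with SQH, 11.52 in the exercise control and 12.22 in the control. Hadhb stood at 11.11 with SQH, 10.56 in the exercise control and 11.18 in the control. Between exercise control and control the 2 genes differed by similar amounts, -0.70 ± 0.04 for Hadha and -0.62 ± 0.05 for Hadhb. Between SQH and exercise control they did not, at 0.21 ± 0.04 for Hadha and 0.56 ± 0.05 for Hadhb. The log2 ratio of Hadha to Hadhb, which multiplying a library by a constant leaves as it is, was 0.62 with SQH, 0.97 in the exercise control and 1.05 in the control. Its difference between SQH and exercise control was -0.34 ± 0.06, beyond counting error, and that between exercise control and control was -0.08 ± 0.06, within it (-0.34 and -0.12 after quantile normalization).

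Hadh, the matrix enzyme for medium and short chain hydroxyacyl-CoA (chromosome 3, 131233419 to 131272101), stood at 11.33 with SQH, 10.61 in the exercise control and 11.22 in the control. It differed by -0.62 ± 0.05 between exercise control and control and was 0.73 ± 0.05 higher with SQH than in the exercise control, and so passed the control by 0.11 ± 0.04. That last difference was as low as 0.067 under the scalings tried, within counting error. Neither Hadh nor the trifunctional protein genes were called.

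The electron transfer flavoprotein genes spanned the widest and nearly the narrowest spread of the 10. Etfa, the alpha subunit (chromosome 9, 55454508 to 55512243), stood at 9.49 with SQH, 7.72 in the exercise control and 9.12 in the control, from about 941, 177 and 595 reads. The exercise control lay far below both other libraries. Etfa was called lower in the exercise control relative to the control (-1.41 ± 0.12, or 37.7% of the control level) and called higher with SQH than in the exercise control (1.78 ± 0.12, 3.43-fold). It was the only call among the 10 genes in either comparison, and both differences stayed past 1 in size under every scaling and pseudocount tried, at -1.34 and 1.68 at their smallest.

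Etfb encodes the beta subunit (chromosome 7, 43444083 to 43457800) and stood at 12.15 with SQH, 12.12 in the exercise control and 12.37 in the control. The SQH and exercise control levels differed by 0.03 ± 0.03, within counting error, and this difference was -0.07 after median centring. The log2 ratio of Etfa to its partner Etfb differed by -1.17 ± 0.13 between exercise control and control and by 1.75 ± 0.12 between SQH and exercise control. The ratio itself was -2.66 with SQH, -4.41 in the exercise control and -3.24 in the control. Reads of a 3' library do not grow with transcript length, so levels were not divided by length, but differences in how well a 3' end is captured remain in any ratio between genes.

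Etfdh, which encodes the ubiquinone oxidoreductase that takes the electrons onward (chromosome 3, 79603788 to 79629500), had the lowest level of the 10 genes. It stood at 7.59 with SQH, 7.02 in the exercise control and 7.65 in the control, from about 252, 109 and 214 reads. Its differences were -0.63 ± 0.17 between exercise control and control and 0.58 ± 0.17 between SQH and exercise control, with the largest counting errors of the list.

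**Figure D2:**
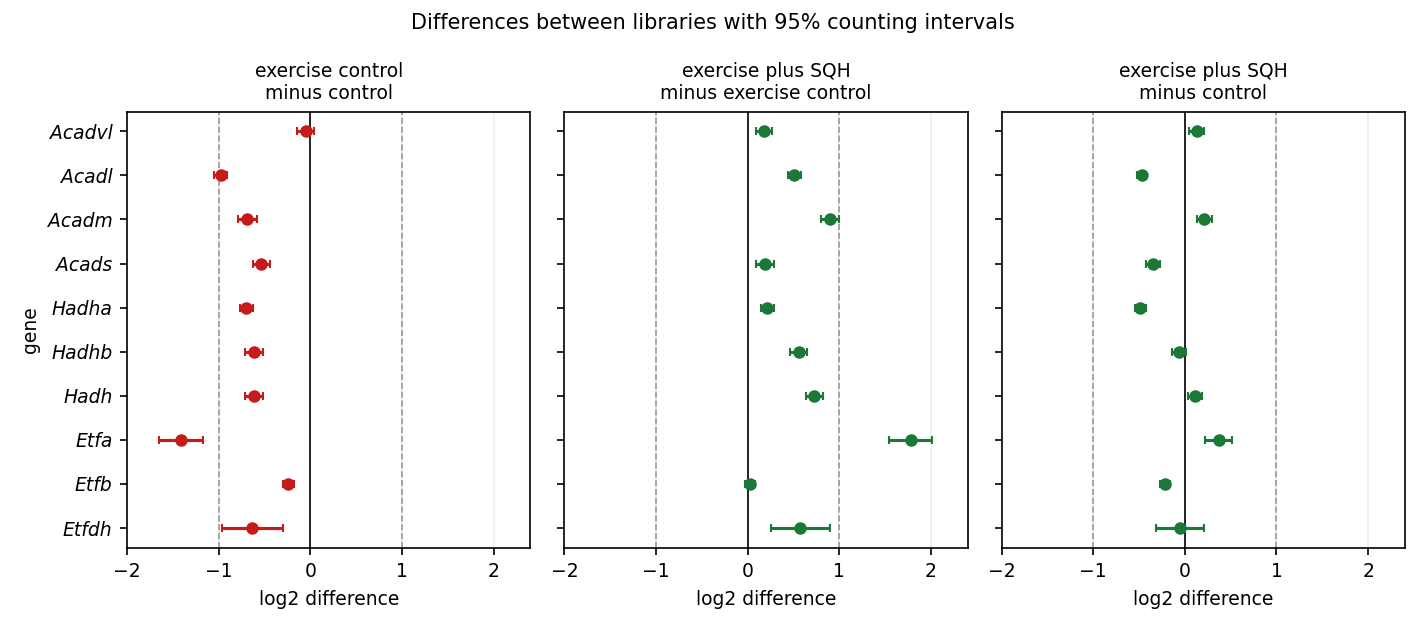
Log2 differences (horizontal axis) of the 10 genes (vertical axis) in the 3 comparisons, with bars for 95% counting intervals and dashed lines at the size of 1 needed for a call. Etfa alone lies past a dashed line, at -1.41 and 1.78, and in the comparison of exercise plus SQH with control all points lie between -0.49 and 0.37.

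Exercise control against control sets exercised mice without SQH beside the control mice. All 10 genes lay below the control (9 of 10 after centring, quantile normalization or scaling to equal sums, with Acadvl above), against 53.6% of the tested rows, with 46.3% above. The median difference of the 10 was -0.63, and that of all tested rows was -0.05. Etfa was the 1 gene called lower, and 5.33% of the tested rows were called lower and 2.95% higher. The 232 higher and 419 lower rows became 283 and 360 after median centring and 293 and 350 with equal sums. At a 1.5-fold size 7 of the 10 were lower (Acadl, Acadm, Hadha, Hadhb, Hadh, Etfa and Etfdh), against 15.5% of the tested rows, and none higher, against 10.1%. After median centring, quantile normalization or scaling to equal sums 4 of the 10 were left (Acadl, Acadm, Hadha and Etfa), against 13.7%, 13.3% and 13.2% of the tested rows. The difference was beyond the counting error for 9 of the 10, all but Acadvl.

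Exercise plus SQH against exercise control sets exercised mice with SQH beside exercised mice without it. With 1 library in each group, the treatment, the animals and the piece of muscle taken cannot be told apart. All 10 genes lay higher with SQH (9 of 10 after median centring, with Etfb below), against 52.1% of the tested rows, with 47.8% lower, and the median difference was 0.53, beside 0.03 over all tested rows. The 1 call was Etfa, where 5.68% of the tested rows were called higher and 2.33% lower. The 446 higher and 183 lower rows became 354 and 252 after median centring. At 1.5-fold 3 of the 10 were higher (Acadm, Hadh and Etfa), against 14.8% of the tested rows, and none lower, against 9.28%. This comparison shares the exercise control library with the preceding one, so the 2 sets of differences are not separate observations. All 12 slow-fibre markers were called higher and all 5 tested nerve markers lower with SQH here. Of 14 fast-fibre markers 3 were called lower (Myh4, Atp2a1 and Mybpc2) and none higher, with 12 below 0. Of 6 tested adipocyte markers 3 were called higher (Cfd, Cidea and Elovl3) and none lower. Both tested cardiac markers, Myh6 and Actc1, were called higher.

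Exercise plus SQH against control leaves out the exercise control library. None of the 10 genes was called, where 1.76% of the tested rows were called higher and 1.26% lower, and none of the 10 reached 1.5-fold, where 7.41% of tested rows were higher and 6.36% lower. Of the 10, 4 lay above the control (5 after quantile normalization, 6 with equal sums), against 48.7% of tested rows, and 6 below it, against 51.2%. The rows called higher and lower, 138 and 99, became 116 and 118 after median centring and 168 and 75 with equal sums. The median difference of the 10 genes was -0.06, beside -0.015 over all tested rows. Hadha (-0.49 ± 0.03), Acadl (-0.47 ± 0.03), Acads (-0.35 ± 0.04) and Etfb (-0.22 ± 0.03) lay below the control by more than the counting error. Etfa (0.37 ± 0.08), Acadm (0.21 ± 0.04), Acadvl (0.13 ± 0.04) and Hadh (0.11 ± 0.04) lay above it by more than that error. Hadhb (-0.06 ± 0.04) and Etfdh (-0.06 ± 0.13) were within it, and both lay above 0 with equal sums. Hadh was as low as 0.067 under the scalings tried, which is within its counting error. The 12 slow-fibre markers, all of which were below the control here, had a median of -0.37 with none called. Of the other markers, cardiac Actc1 (-2.39) and adipocyte Thrsp (-1.71) were called lower and adipocyte Cfd (1.22) higher with SQH than in the control.

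**Figure D3:**
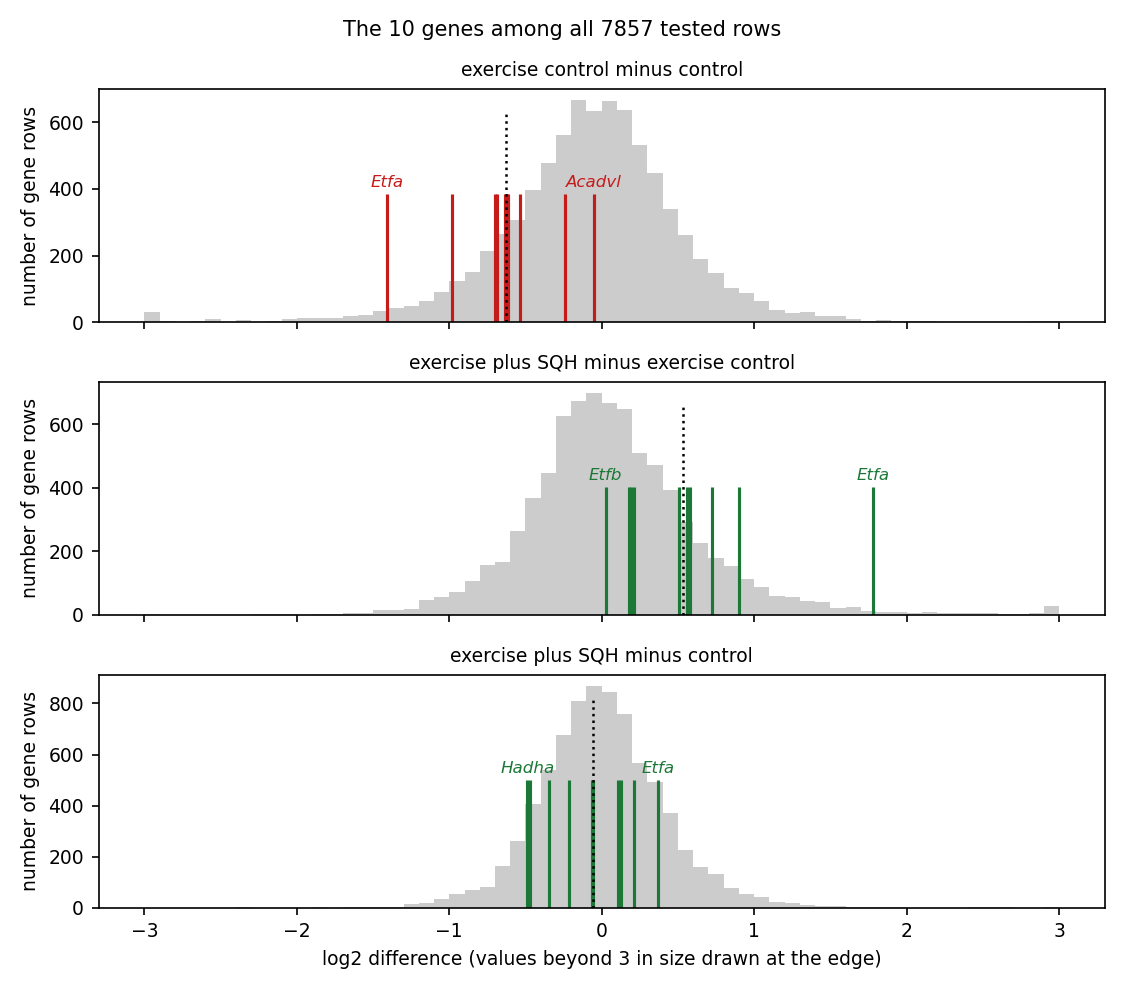
Number of tested gene rows (vertical axis) by log2 difference (horizontal axis) in the 3 comparisons as grey bars, with a coloured line for each of the 10 genes, names at the lowest and the highest of them, and a dotted line at their median. The medians stand at -0.63, 0.53 and -0.06 from top to bottom, and Etfa lies farthest out in the upper 2 panels.

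Other genes of the pathway were described from lists. The other mitochondrial beta-oxidation genes, with the thiolase, hydratase, isomerase and reductase steps among them, had 16 of 18 tested and none called in any comparison, although Acad11 reached 1.02 between SQH and control with equal sums. The list also holds genes that act beside beta-oxidation, Pcca, Pccb, Mcee and Mut of propionyl-CoA breakdown among them, and these enter its medians. The list median was -0.15 between exercise control and control, with 12 of 16 below 0, and 0.39 between SQH and exercise control, with 12 of 16 above 0. Examples are Pcca, a subunit of propionyl-CoA carboxylase (-0.73 ± 0.27 between exercise control and control), Hsd17b10 (0.59 ± 0.18 there), Acad11 (0.96 ± 0.25 between SQH and exercise control) and Acat1, the acetoacetyl-CoA thiolase (0.86 ± 0.04 there). Between SQH and control the median was 0.04, and Acad11 (0.96 ± 0.23) and Hsd17b10 (0.78 ± 0.16) lay farthest from 0.

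Genes of other enzymes that feed the flavoprotein or ubiquinone, and of their flavin and quinone supply, had 14 of 22 tested and none called. Their medians were -0.11 between exercise control and control, 0.04 between SQH and exercise control and -0.03 between SQH and control. Coq7, of ubiquinone synthesis, lay at -0.61 ± 0.06 between exercise control and control. Acadsb, the short and branched chain dehydrogenase gene, lay at -0.40 ± 0.08 between SQH and exercise control. Lyrm5, an older symbol of the flavoprotein regulator Etfrf1, lay at -0.54 ± 0.07 and Acad8 at 0.48 ± 0.12 between SQH and control. In complex III, which takes electrons from ubiquinol, none of 10 was called and the medians were 0.10, -0.06 and 0.08 in the 3 comparisons, with Uqcrfs1, the Rieske protein gene, at -0.35 ± 0.04 in the first and 0.61 ± 0.04 in the second. Between SQH and control Uqcrfs1 lay at 0.26 ± 0.03. Uqcr10 lay at 0.16 ± 0.03 between exercise control and control, and Uqcrb at 0.33 ± 0.04 and 0.37 ± 0.03 with SQH against exercise control and control.

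Fatty acid uptake, activation and import had 16 of 20 found genes tested, with medians of -0.14 between exercise control and control, 0.24 between SQH and exercise control and 0.08 between SQH and control. Fabp3, the muscle fatty acid binding protein gene, was called lower in the exercise control, against control (-1.12 ± 0.02). With SQH, Fabp3 (1.24 ± 0.02) and the acyl-CoA synthetase gene Acsl3 (1.30 ± 0.14) were called higher than in the exercise control, and Acsl6 (1.07 ± 0.17) higher than in the control. Peroxisomal beta-oxidation had 11 of 15 tested and none called, with medians of 0.00, 0.24 and 0.07 in the same order. Acaa1a, a thiolase, lay at -0.88 ± 0.11 between exercise control and control, and the transporter gene Abcd2 at -0.70 ± 0.19 between SQH and exercise control. Between SQH and control Abcd2 lay at -0.58 ± 0.19 and Hsd17b4 at 0.48 ± 0.20. The lipid droplet and lipolysis list, with 13 of 14 tested, had medians of -0.03, 0.11 and 0.19. Cidea (-1.68 ± 0.32) and the triglyceride synthesis gene Dgat2 (-1.10 ± 0.09) were called lower in the exercise control, against control. Cidea (2.39 ± 0.30), Dgat2 (1.32 ± 0.09) and G0s2 (1.03 ± 0.16), an inhibitor of lipolysis, were called higher with SQH than in the exercise control. G0s2 lost its call after median centring (0.94), quantile normalization (0.97) or with the pseudocount of 8 (0.99). Between SQH and control Plin2 (0.85 ± 0.12) and G0s2 (0.73 ± 0.14) lay farthest from 0. Cidea is also on the adipocyte list, whose sums, mostly Fabp4, are given above.

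Regulators of the pathway and other target genes of the PPARs had 25 of 27 tested, with medians of 0.05, 0.03 and 0.19 in the 3 comparisons. The estrogen-related receptor genes Esrrb (-1.48 ± 0.29) and Esrrg (-1.08 ± 0.15) were called lower in the exercise control relative to control muscle. Called higher with SQH than in the exercise control were Pdk4, the kinase gene that restrains pyruvate dehydrogenase (1.96 ± 0.04), Esrrb (1.19 ± 0.29) and the coactivator gene Ppargc1a (1.06 ± 0.04), which lost this call after median centring (0.96). Ppargc1a (1.65 ± 0.04) and Pdk4 (1.58 ± 0.03) were also called higher with SQH than in the control, where none of the 10 genes was called. The tricarboxylic acid cycle, which burns the acetyl-CoA, had 18 of 18 tested and medians of -0.15, 0.16 and -0.004. Sdhd, a membrane subunit gene of succinate dehydrogenase, another flavin enzyme that feeds ubiquinone, was called with -3.82 ± 0.21 and 4.74 ± 0.21. The other subunit genes of that enzyme were not called: Sdha (0.06 and -0.04), Sdhb (-0.35 and 0.02) and Sdhc (-0.12 and 0.47) in the same 2 comparisons. The isocitrate dehydrogenase gene Idh2 was called with -1.49 ± 0.03 and 1.16 ± 0.03. Between SQH and control Sdhd lay at 0.92 ± 0.06 and Mdh2 at -0.50 ± 0.01.

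**Figure D4:**
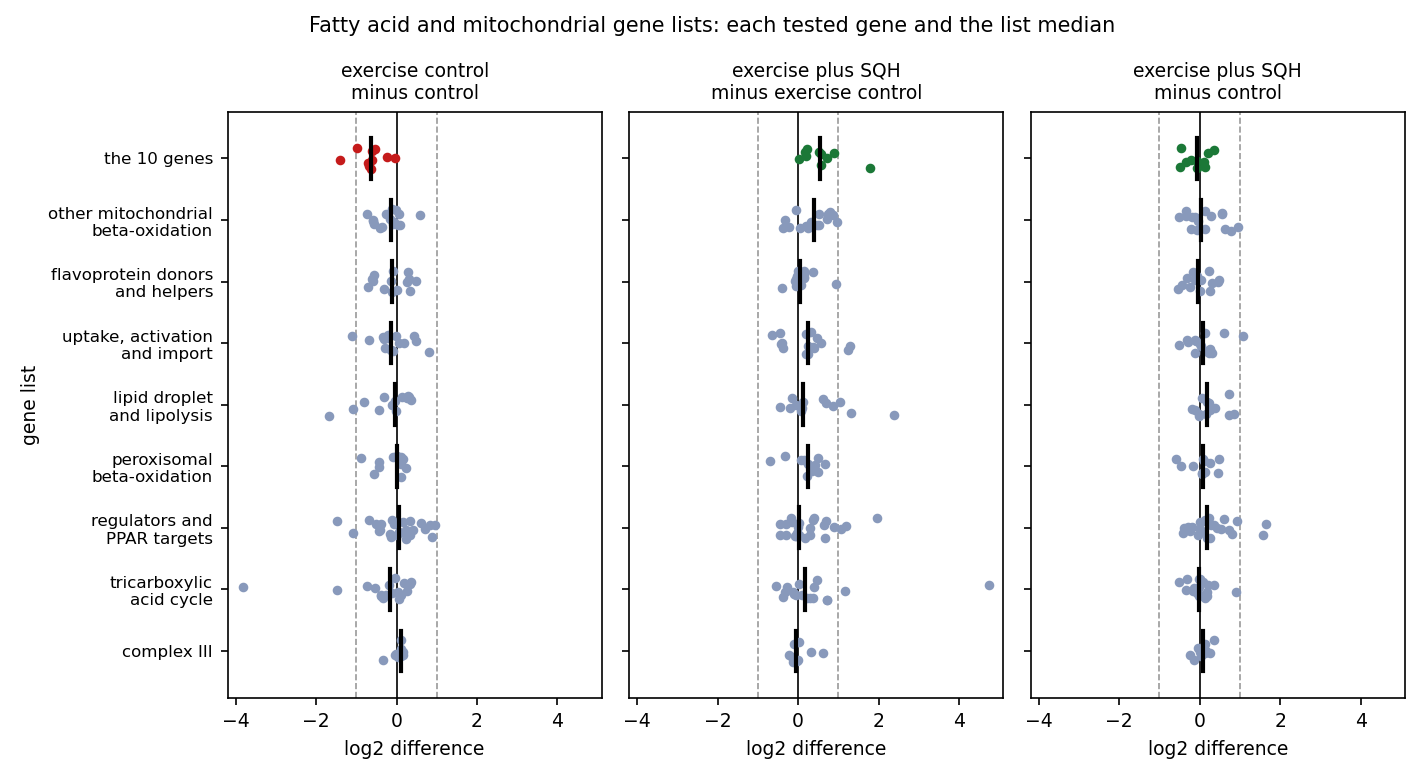
Log2 differences (horizontal axis) of the 10 genes and of the tested genes of 8 pathway lists (vertical axis) in the 3 comparisons, 1 point per gene with vertical jitter only, a black bar at each median and dashed lines at 1 in size. The 10 genes have the median farthest from 0 in the first 2 panels (-0.63 and 0.53), with the other mitochondrial beta-oxidation list at -0.15 and 0.39.

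The 5 genes whose centred log2 values over the 3 libraries lay closest to those of Etfa were Hr, Wdr92, Rchy1, Chrna1 and Rpl26, at Euclidean distances of 0.026 to 0.083. Chrna1, the acetylcholine receptor alpha subunit gene, stood at 10.51 with SQH, 8.66 in the exercise control and 10.17 in the control. Likeness over 3 libraries is a loose criterion, and none of the 5 is a gene of fatty acid oxidation on the lists.

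Some of the 10 rows could hold reads of other genes, since the handling of strand is not given in the sources used here. Acadvl shares 1151 exonic bases, its 3' end among them, with Dvl2 on the opposite strand, which stood at 7.75 with SQH, 7.41 in the exercise control and 7.36 in the control, a small fraction of the Acadvl level. Etfb shares 617 exonic bases, its 3' end among them, with the gene model Gm45233 on its own strand, whose transcript matched the last 300 bases of Etfb at 100% identity. Reads of the 2 could not be told apart there, which touches the Etfb level and the ratio of Etfa to Etfb. Etfb also shares 61 bases with the miRNA gene Mir7051, and Hadha shares 75, its 3' end among them, with Garem2 on the opposite strand. Gm45233 and Garem2 have no row under those symbols in the deposited values. Etfdh overlaps 4930579G24Rik on the opposite strand by 278 exonic bases away from its 3' end. The last 300 bases of a Hadhb transcript matched the processed pseudogenes Gm13910 and Gm9108 at 99.4% and 98.2% identity over 166 bases, so part of its reads may have been placed elsewhere or lost. This and the Garem2 overlap touch the ratio of Hadha to Hadhb. Annotated coding transcripts end at 4 positions each in Hadhb and Etfb and at 1 each in Hadha and Etfa, and use of these ends was not examined. For Etfa no exonic overlap and no such copy was found in GENCODE M21.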

How the data were processed

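Skeletal muscle RNA (500 ng per library) was made into QuantSeq 3' libraries, 1 for each of 3 groups taken from the sample titles. Bowtie2, edgeR and mm10 are named in the submitters' processing notes. For none of them is a role or version stated there, and strand handling is not given in the sources used here. The deposited values are log2 levels, whose scale the file headers do not state. The test was planned for counts or log2 values, and the latter applied.

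Raised to the linear scale, low values bunch at multiples of 1 step per library (0.767, 1.19 and 0.939 for exercise plus SQH, exercise control and control). In the same order 84.6%, 95.7% and 100% of the linear values no larger than 9 were whole multiples to a tolerance of 0.2 step. Exact reads were not recovered, and approximate reads (linear value over step) gave the Poisson standard error of each difference. A value of 0 was taken as linear 0.

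The expression minimum was the median of the mean linear value over the 15714 rows above 0 in any library, which left 7857 rows, called at 2-fold. Members and lists (8 pathway, 10 marker) were chosen with earlier results of these data known. Called list members were named, up to 4 by size, else the 2 farthest from 0. Values of 2 genes that this rule names are not reported here. Markers were named up to 3 by level. Beyond that rule Fabp4, Adipoq, Plin1 and Lipe as markers, markers at 0, Dvl2 and other overlapping genes, and the pseudogenes were chosen after their values or positions were seen. Of the listed symbols, 4 were matched through an older symbol in RefSeq, among them Etfrf1. Positions are from GENCODE M21 (GRCm38, the assembly called mm10). The last 300 bases of coding transcripts were searched with blastn 2.17.0 for copies of at least 100 bases at 90% identity. Scripts ran in Python 3.11.15 with numpy 2.4.6 and pandas 2.3.3. The calling and scaling steps were tested on simulated data with counting noise alone. All planted changes there exceeded the size of a call, so changes near that size and differences between animals were not tried. Alternatives were median centring, quantile normalization, equal sums without the ribosomal precursor Rn45s, a pseudocount of 8, other expression minimums and a 1.5-fold call, the last also combined with each scaling and the pseudocount.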

Additional observations from a re-analysis of the deposited data

How the results depend on the processing

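The call of Etfa in both comparisons with the exercise control, and the absence of any call among the 10 genes between SQH and control, held under all 7 alternatives. Only the scalings and the pseudocount change the size of a difference. The other minimums leave it as it is, and the 1.5-fold size can only add calls, so these were no trial of the Etfa call. The 1.5-fold size gave 7 genes lower in exercise control against control and 3 higher in SQH against exercise control, in place of 1 and 1. Combined with the 1.5-fold size, an alternative chosen after seeing the data, median centring, quantile normalization and equal sums each left 4 lower in place of 7, while a pseudocount of 8 kept 7, and all of these gave 3 higher. Of the called pathway genes, G0s2 and Ppargc1a lost a call under a scaling or the pseudocount. In exercise control against control the regulator list gained 1 higher call under median centring, quantile normalization and equal sums. With the minimum at the upper quartile, where fewer genes were tested, its lower calls in that comparison went from 2 to 0. Those of the lipid droplet list went from 2 to 1. Counts and medians of the pathway lists gave 435 values near the reported one and 45 that moved. A count was near if it changed by no more than 1.5-fold, and counts of 0 that stayed at 0 are included. A median was near if it moved by no more than 1.96 times the list's median counting standard error. The median difference of the 10 genes in SQH against exercise control was 0.44 after median centring, in place of 0.53. It changed sign in SQH against control with equal sums (0.0026 in place of -0.06).

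Counts over all rows moved with the minimum and the fold, which change how many rows can be called. With no expression minimum, 1113 rows were higher and 1536 lower in exercise control against control, 1548 and 1003 in SQH against exercise control, and 1015 and 837 in SQH against control. With the minimum at the upper quartile, which leaves out Etfdh, these were 75 and 158, 166 and 52, and 36 and 22. At 1.5-fold they were 796 and 1216, 1159 and 729, and 582 and 500.

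No paired analysis was possible because each group has 1 library and the labels give no replicate numbers. No library can be left out of a comparison, and depth limits Etfdh most, with about 109 reads in the exercise control.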
